A study of Homo sapiens with 12 samples.

Results

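The contractile unit of the cardiomyocyte, the sarcomere, was followed here through 9 of its transcripts as fragments in the RNA cargo of extracellular vesicles (EV). The 9 genes were MYH6, MYH7, TTN, TNNT2, ACTC1, MYL7, MYL4, TNNC1 and TPM1. Each was taken as its row of biotype protein_coding in the gencode table, which holds 13577 such rows and 39666 rows in all. Before rounding, a deposited count of at least 1 was found for 5 of the 9 in hiPSC-EV and for all 9 in each of the other 3 EV groups. In CPM, counts scaled to a common library size, the sum over the 9 genes was 137 ± 52.6 (SD, n = 3) for hiPSC-EV. CPC-EV had 1557 ± 267, CMi-EV 12744.5 ± 2808 and CMm-EV 10439 ± 2032.

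In the sarcomere, thick filaments of myosin pull on thin filaments of actin, and troponin and tropomyosin on the thin filament let them do so only when calcium rises. Titin spans from the border of the sarcomere to its centre and acts as a spring. The heart builds these parts from isoforms that change as it matures: human ventricular muscle moves from more MYH6 to almost only MYH7, and MYL4 and MYL7 are light chains of atrial and embryonic myocardium. Intact messenger RNA is too long for a small RNA library, so each count is a short piece of a transcript, and such pieces may be fragments packed into EV or products of breakdown.

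The 12 EV preparations came from cultures of the established human induced pluripotent stem cell line IMR90-4, derived from fetal lung fibroblasts, with 3 independent cultures per group. Vesicles in hiPSC-EV were harvested from undifferentiated cells at day 0 after 24 h in expansion medium, in CPC-EV from cardiac progenitors at day 6 after 72 h in differentiation medium, in CMi-EV from immature cardiomyocyte aggregates at day 15 after 48 h in maintenance medium, and in CMm-EV from aggregates at day 35, kept from day 15 in a maturation medium with galactose and fatty acids and without glucose, with 48 h of conditioning. Stage and medium changed together at every step. Conditioning time changed too up to CMi-EV, and monolayers gave way to aggregates between CPC-EV and CMi-EV, so the effects of these within a step cannot be told apart, and no cell line other than this one was sequenced. A lower level of a fragment can mean fewer vesicles of one origin or less RNA per vesicle, and bulk libraries do not separate these.

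The gencode table held between 131423 (CMm-EV 1) and 1908539 (hiPSC-EV 3) counts per library, between 4.26% and 20.6% of the library total. Levels are CPM of the rounded gencode counts after trimmed mean of M-values (TMM) scaling, whose factors ran from 0.335 in hiPSC-EV 3 to 2.20 in CMm-EV 1. A library without a count can still hold up to 3 counts of a transcript, which ranges from 1.57 CPM of the unscaled total (hiPSC-EV 3) up to 22.8 CPM for the shallowest library, CMm-EV 1. These floors are not on the TMM scale of the levels and cannot be set beside them directly. The floors and all intervals on counts cover counting error only. Of 14 listed markers of pluripotent stem cells, hiPSC-EV had counts for 13, CPC-EV for 11, CMi-EV for 4 and CMm-EV for 3, and their sum was 977 to 1846 CPM at the first stage and 3.82 to 44.2 CPM at the last. POU5F1, which maintains pluripotency, was at 0 in all CMi-EV and CMm-EV. NANOG, another of these markers, was at 31.9, 36.7 and 16.1 CPM in hiPSC-EV. It was at 0 in all CPC-EV and CMi-EV, and at 0, 39.3 and 3.82 CPM in CMm-EV. Markers of blood had no count in any library. Those of endothelium summed to 35.4 to 66.5 CPM in hiPSC-EV and to at most 126 CPM, in CMm-EV 3. Those of endoderm and liver summed to 133 CPM in CPC-EV 3 and 173 CPM in CMi-EV 3. Most of this was APOB, at 132 and 119 CPM in these libraries.

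TTN, which encodes titin, carried most of the counts. Its levels were 95.6, 133 and 29.02 CPM in hiPSC-EV, 1097, 883 and 1443 CPM in CPC-EV, 7939, 11294 and 8569.9 CPM in CMi-EV and 8728, 8498 and 6119.8 CPM in CMm-EV. The hiPSC-EV, CPC-EV and CMi-EV libraries did not overlap with each other, whereas CMm-EV overlapped with CMi-EV. Of the counts on the 9 genes, TTN made up 36.2% to 72.6% in the hiPSC-EV libraries, 69.1% to 79.7% in those of CPC-EV, 70.6% to 76.9% in those of CMi-EV and 67.6% to 85.5% in those of CMm-EV. Its gene lies at chr2:178525989-178830802 on the minus strand (hg38, GENCODE), and the annotated transcript used for lengths has 363 exons and 109224 bases. Per kilobase the level of TTN was 84.9 ± 16.3 CPM (SD, n = 3) in CMi-EV, and 7 of the 8 other genes had a higher mean.

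**Figure D1:**
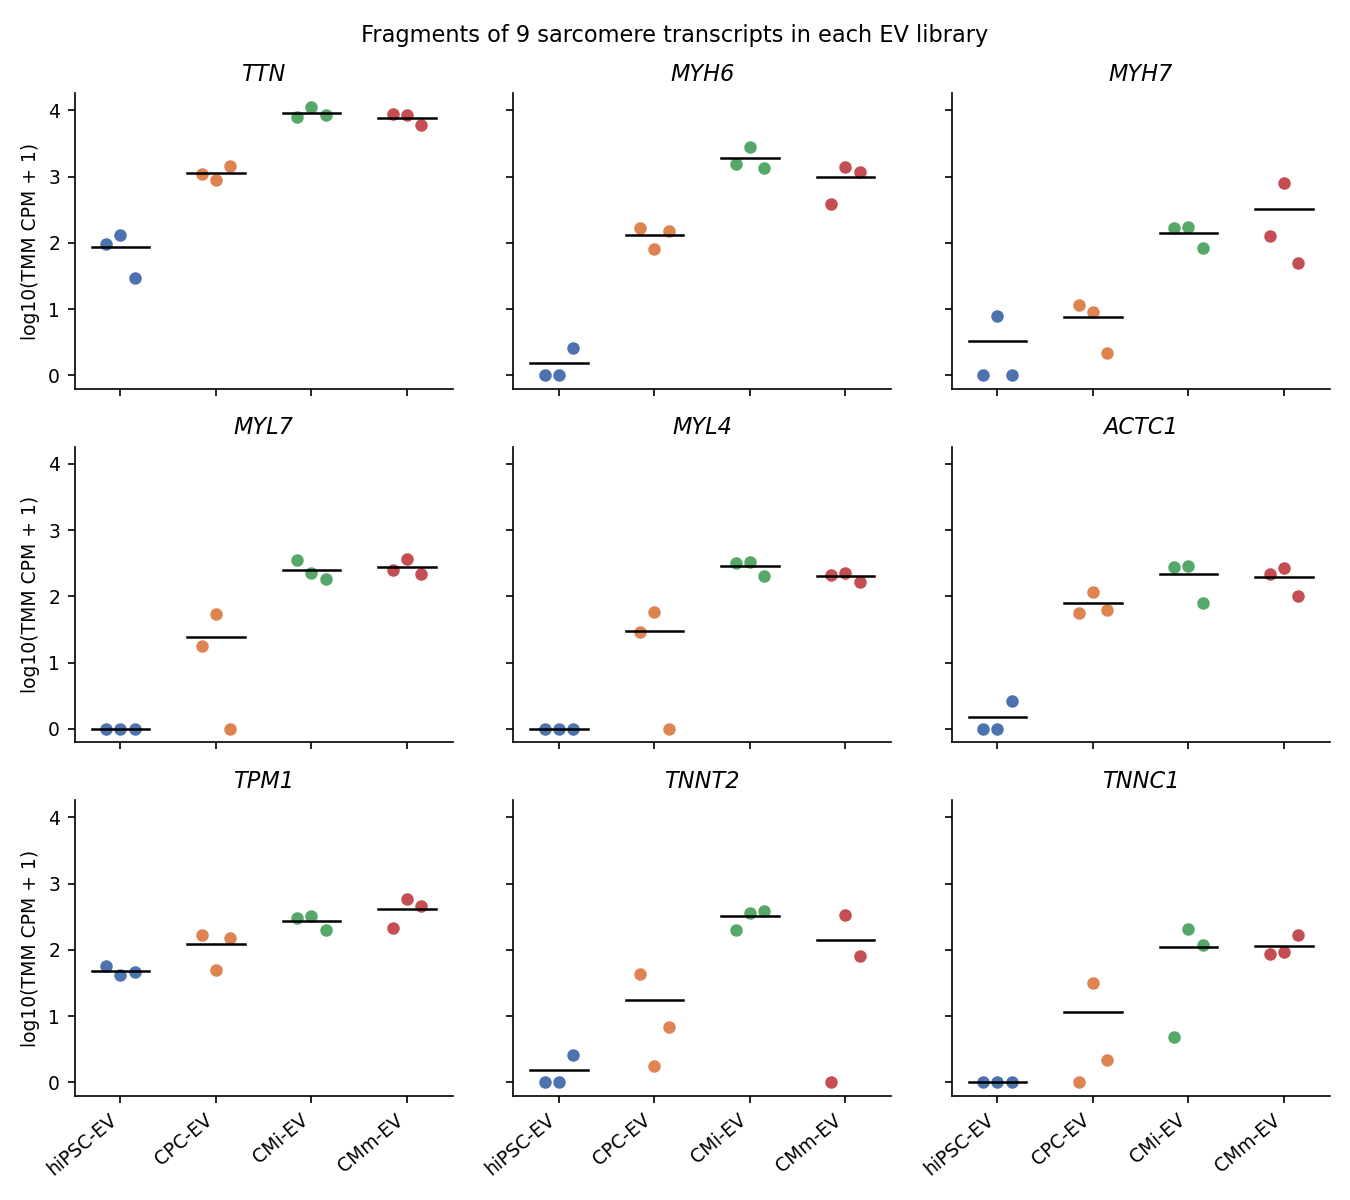
Levels of the 9 sarcomere transcripts in each library, as log10 of TMM-normalized CPM plus 1 (vertical axis) by EV group (horizontal axis). Points are libraries and bars the mean of 3. TTN stands near 4 on this axis in CMi-EV and CMm-EV, and TNNT2 in CMm-EV 1 and TNNC1 in CMi-EV 1 sit far below the other libraries of their group.

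MYH6 encodes the alpha myosin heavy chain, the fast motor of atrial and fetal human myocardium. It had 1 count in all of hiPSC-EV, rounded from a deposited 0.667 in hiPSC-EV 3. Its levels were 167, 79.2 and 149 CPM in CPC-EV, 1542, 2788 and 1329 CPM in CMi-EV and 389, 1408 and 1176 CPM in CMm-EV. All CMi-EV exceeded all CPC-EV, and CMm-EV overlapped with CMi-EV through CMm-EV 2. MYH7 encodes the beta myosin heavy chain, the slower motor of the adult ventricle. It had 3 counts in all of hiPSC-EV, and its levels were 10.7, 8.07 and 1.18 CPM in CPC-EV, 165, 171 and 83.1 CPM in CMi-EV and 126, 807 and 49.6 CPM in CMm-EV. CMm-EV 2 was far above both other CMm-EV, which lay within or below the range of CMi-EV.

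The genes of the 2 heavy chains lie next to each other on the minus strand of chromosome 14, MYH6 at chr14:23381982-23408273 and MYH7 at chr14:23412740-23435660 (hg38). Their coding sequences were identical at 90.9% of 5805 aligned bases. Of the distinct 30-base words of the MYH6 coding sequence, 25.7% also occurred in MYH7 (35.8% of 20-base words). Over windows of 60 coding bases within 1 exon of both genes, the median was 2 mismatches, and 15.7% of 3610 windows had none. A read from such a window cannot be assigned to 1 of the pair. The windows below show the range, a window without mismatch (exon 13 of MYH6, chr14:23400724-23400783, and exon 14 of MYH7, chr14:23428970-23429029) and the window with the most mismatches, 22 (exon 25 of MYH6, chr14:23392593-23392652, and exon 26 of MYH7, chr14:23420989-23421048), each written 5′ to 3′ on the coding strand with capitals where the pair differs.
MYH6, most alike: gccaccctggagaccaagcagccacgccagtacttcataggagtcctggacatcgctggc
MYH7, most alike: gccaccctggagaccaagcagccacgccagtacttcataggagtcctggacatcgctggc
MYH6, least alike: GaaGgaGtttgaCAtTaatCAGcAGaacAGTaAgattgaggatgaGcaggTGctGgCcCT
MYH7, least alike: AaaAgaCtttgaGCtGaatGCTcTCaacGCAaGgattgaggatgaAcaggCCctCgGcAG

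The ratio of MYH6 to MYH7 deposited counts is a common readout of cardiomyocyte maturation. It was 16.2, 9.53 and 112 in CPC-EV, 9.30, 16.4 and 15.9 in CMi-EV, and 3.13, 1.74 and 23.3 in CMm-EV. Thus CMm-EV 1 and CMm-EV 2 were below all CMi-EV, whereas CMm-EV 3 was above them. As a share of the counts on both genes, MYH6 made up 75.6% (exact binomial 95% interval 67.4% to 82.5%) in CMm-EV 1, 63.6% (60.3% to 66.7%) in CMm-EV 2 and 96.0% (93.2% to 97.8%) in CMm-EV 3, so these 3 libraries differed by more than counting error. In CMi-EV the share was 90.3%, 94.2% and 94.1%.

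On the log2 scale, with a pseudocount of 0.5, CPC-EV had a mean ratio of 4.48 ± 1.61 (SD, n = 3), CMi-EV of 3.73 ± 0.45 and CMm-EV of 2.31 ± 1.93. CMm-EV minus CMi-EV was -1.43 (exact permutation test over libraries, two-sided, p = 0.4, where the 20 splits allow no p below 0.1). Without CMm-EV 3 the difference was -2.52, and without CMm-EV 2 it was -0.67. With the counts of each group summed, it was -2.29. CMi-EV minus CPC-EV was -0.74 in the same test (exact p = 0.9), with 1 to 11 counts of MYH7 behind each value of CPC-EV. The part that shared reads had in the MYH7 counts was not tested.

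**Figure D2:**
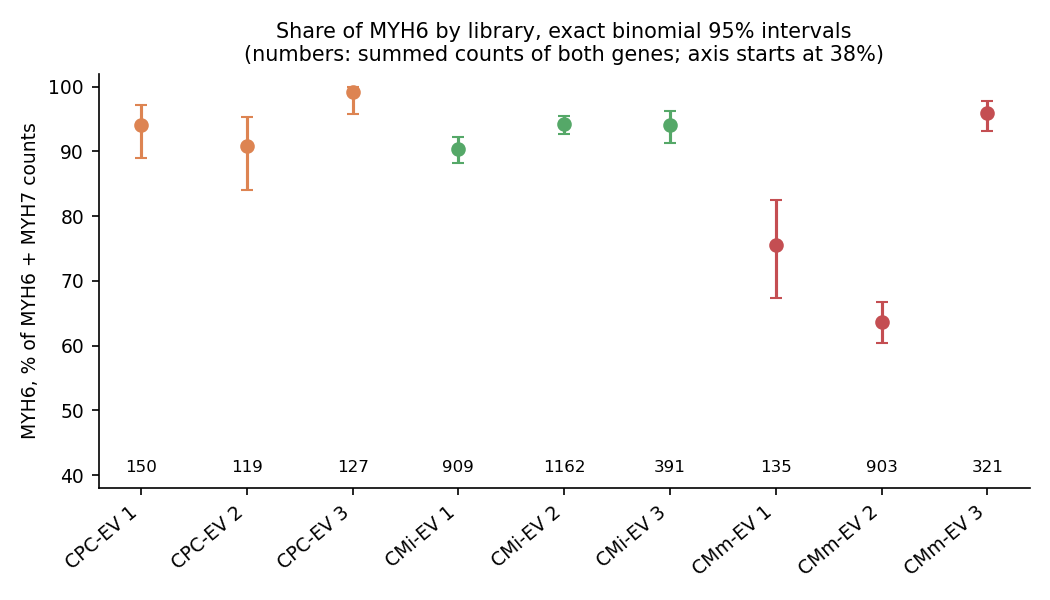
MYH6 as a percentage of the counts on MYH6 and MYH7 (vertical axis, which does not start at 0) in each library of CPC-EV, CMi-EV and CMm-EV (horizontal axis), with exact binomial 95% intervals and the summed counts of both genes below. CMm-EV 1 and CMm-EV 2 lie below the 6 earlier libraries and CMm-EV 3 lies among them.

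Each heavy chain gene also holds a miRNA in an intron, miR-208a in intron 29 of MYH6 and miR-208b in intron 30 of MYH7. In CPM of the miRNA counts, miR-208a-3p was at 550, 744 and 801 in CMi-EV and 424, 439 and 318 in CMm-EV. The other arm, miR-208a-5p, overlapped, at 85.0, 314 and 375 in CMi-EV and 119, 190.2 and 175 in CMm-EV. The level of miR-208b-3p was 0, 0 and 37.4 in CMi-EV and 63.0, 51.8 and 58.0 in CMm-EV, CMm-EV 3 included, where MYH7 had 13 counts.

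The 2 light chains of the set, MYL7 (regulatory) and MYL4 (essential), bind the neck of the myosin heads in atrial and embryonic muscle. Neither had a count in hiPSC-EV. MYL7 was at 16.6, 53.5 and 0 CPM in CPC-EV, 351, 224 and 184 CPM in CMi-EV and 248, 366 and 218 CPM in CMm-EV. MYL4 was at 28.5, 57.9 and 0 CPM in CPC-EV, 321, 331 and 202 CPM in CMi-EV and 210.0, 228 and 164 CPM in CMm-EV. Both were absent from the same library, CPC-EV 3, and both had all CMi-EV above all CPC-EV. Per kilobase MYL7 ranked first in CMi-EV (414 ± 143 CPM, SD, n = 3) and in CMm-EV (453 ± 128 CPM).

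On the thin filament, ACTC1 encodes the cardiac actin and TPM1 the main striated muscle tropomyosin. ACTC1 had 1 count in all of hiPSC-EV and was at 54.6, 117 and 61.6 CPM in CPC-EV, 279.9, 283 and 79.5 CPM in CMi-EV and 214, 265 and 99.3 CPM in CMm-EV. CMi-EV 3 lay within the range of CPC-EV, so these groups overlapped. TPM1, which is also made in cells without sarcomeres, was at 56.7, 41.3 and 45.1 CPM in hiPSC-EV, 164, 49.1 and 148 CPM in CPC-EV, 297, 328 and 195 CPM in CMi-EV and 210.0, 574 and 462 CPM in CMm-EV. TPM1 and TTN had at least 16 counts in every library, and each of the 7 other genes had a library at 0.

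TNNT2 encodes cardiac troponin T, which fixes the troponin complex to tropomyosin, and TNNC1 the subunit that binds calcium. TNNT2 had 1 count in hiPSC-EV and was at 42.7, 0.733 and 5.92 CPM in CPC-EV, 199, 364 and 390.0 CPM in CMi-EV and 0, 336 and 80.2 CPM in CMm-EV. TNNC1 was not counted in hiPSC-EV, and its levels were 0, 30.1 and 1.18 CPM in CPC-EV, 3.76, 204 and 116 CPM in CMi-EV and 84.0, 93.2 and 164 CPM in CMm-EV. Both troponins thus had 1 library far below the others of its group. TNNT2 had 0 counts in CMm-EV 1, with 131423 gencode counts in all, and TNNC1 had 2 in CMi-EV 1, with 445688. The part of depth in these values was not tested.

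Between genes, levels of the protein_coding rows were compared per kilobase of the annotated transcript. This row holds 38.4% of the sense counts of ACTC1, 66.6% of those of TPM1 and more in each other gene, such as 99.9% in TTN. The level of ACTC1 is thus understated relative to all the others, and its place in the orders below may be too low. In CMi-EV the order was MYL7, MYL4, MYH6, TNNT2, TPM1, TNNC1, ACTC1, TTN and MYH7, from 414 to 23.2 CPM per kilobase. Neighbours in this order overlapped over the libraries, except TTN and MYH7, which were apart in all 3 libraries. In CMm-EV the order was MYL7, TPM1, MYL4, MYH6, TNNC1, ACTC1, TNNT2, TTN and MYH7, from 453 to 54.4 CPM per kilobase, and all neighbours overlapped. In hiPSC-EV, TPM1 stood above TTN without overlap (39.2 ± 6.58 against 0.786 ± 0.482 CPM per kilobase).

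**Figure D3:**
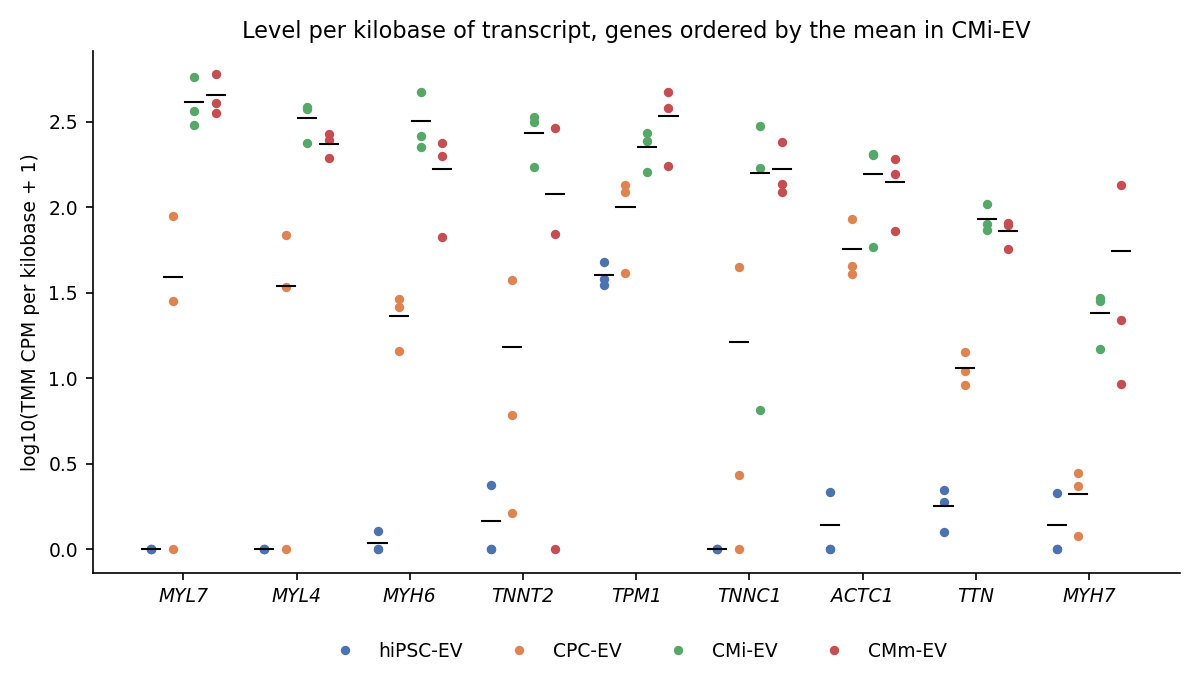
Levels per kilobase of transcript, as log10 of TMM-normalized CPM per kilobase plus 1 (vertical axis), for the 9 genes ordered by their mean in CMi-EV (horizontal axis). Points are libraries, coloured by EV group, and bars are means of 3. MYH7 is lowest in CMi-EV, and TPM1 is highest in hiPSC-EV.

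The first step, from hiPSC-EV to CPC-EV, asks whether fragments of contractile transcripts appear with cardiac commitment. Only 4 of the 9 transcripts had at least 5 CPM, before TMM scaling, in 3 of these 6 libraries and were tested. Their log2 fold changes in edgeR's quasi-likelihood test were 7.36 ± 1.34 (SE) for MYH6, 6.63 ± 1.52 for ACTC1, 3.84 ± 0.58 for TTN and 1.43 ± 0.70 for TPM1, with FDR of 0.117, 0.157, 0.117 and 0.65. MYH6 and ACTC1 passed the filter through CPC-EV alone. Without hiPSC-EV 3, which holds the 1 count of each, their fitted values were 9.66 and 8.90, against a group at 0 and so dependent on the prior count. None of the 4 was called at FDR 0.05, nor was any of the 5308 rows tested (0% higher and 0% lower). At an unadjusted p of 0.05, 3 of the 4 and 509 of all rows passed, and DESeq2 called 3 of the 4 and 354 of all rows. MYH6, TTN and ACTC1 had all CPC-EV above all hiPSC-EV, which held for 8.74% of 7755 rows. For the genes at 0 in hiPSC-EV the pooled counts give a bound, which was at least 12.7-fold higher for MYL7, 15.1-fold for MYL4 and 6.15-fold for TNNC1 against a floor of 3 counts over the group. CPC-EV 2 carried most of these counts, 73 of 87 for MYL7, 79 of 103 for MYL4 and 41 of 42 for TNNC1, and without it TNNC1 is below the floor and has no bound. CPC-EV 1 carried 36 of the 42 counts of TNNT2. With 1 rounded count in hiPSC-EV, the ratio was 165 for MYH6 (exact counting interval 29.4 to 6519), 113 for ACTC1 (20.1 to 4473) and 18.4 for TNNT2 (3.13 to 745). With 3 counts it was 3.07 for MYH7 (0.918 to 16.1).

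From CPC-EV to CMi-EV, all 9 transcripts were tested and all 9 had a positive log2 fold change, with a median of 3.25 beside -0.94 over all 3772 rows tested, a description since 5 of the 9 passed the filter only with CMi-EV. TTN alone was called (2.94 ± 0.29, SE, FDR 0.0352, edgeR), among 0.053% of rows called higher and 0.0265% called lower. MYH6 had a log2 fold change of 3.73 ± 0.47 and MYH7 of 4.26 ± 1.02, both at an FDR of 0.0807, and TNNT2 had 4.15 ± 1.22 at 0.112. The values of MYL7 (3.36 ± 1.37), MYL4 (3.21 ± 1.34), TNNC1 (3.25 ± 1.93), ACTC1 (1.38 ± 0.74) and TPM1 (1.09 ± 0.66) had FDR from 0.262 to 0.492. Every CMi-EV was above every CPC-EV for 7 of the 9, all but ACTC1 and TNNC1, and for 2.79% of all rows. Those 5, MYH7, TNNT2, MYL7, MYL4 and TNNC1, reached 5 CPM in at most 2 CPC-EV libraries, so this count is a description too. DESeq2 called 7 of the 9 and 848 of all rows, 4 of the 9 and 790 of all rows passed at an unadjusted p of 0.05, and edgeR called 0 of the 9 and 0 to 2 of all rows when any 1 of the 6 libraries was left out, with TTN at a log2 fold change of 2.75 to 3.20. That of TNNT2 was 6.52 without CPC-EV 1, and those of MYL7 and MYL4 were 4.81 and 4.22 without CPC-EV 2. Without CMi-EV 1, TNNC1 had 3.98.

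From CMi-EV to CMm-EV, no transcript of the 9 was called, and none had an unadjusted p under 0.05 in edgeR. DESeq2 called none of the 9 either. Over all 1861 rows, 0% were called higher and 0% lower, 148 passed at an unadjusted p of 0.05 and DESeq2 called 61. The log2 fold change was positive for 4 of the 9, with a median of -0.07 against -0.16 over all rows. It was -0.17 for TTN (95% interval -1.01 to 0.67), -0.87 for MYH6 (-2.08 to 0.34) and 1.27 for MYH7 (-0.81 to 3.35). These intervals include changes of over 1 log2 unit for all 3 genes. Without CMm-EV 2 the value of MYH7 turned to -0.50. None of the 9 had all CMm-EV above all CMi-EV (1.9% of all rows) or all below (2.97%).

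Over the whole course, CMm-EV against hiPSC-EV, 8 of the 9 transcripts were tested and all 8 were higher, while 2.61% of 3177 rows were called higher and 26.2% lower. TNNT2, at 0 in CMm-EV 1, did not pass the filter. Only TTN and TPM1 had more than 3 counts in any hiPSC-EV library, so the other 6 passed the filter through CMm-EV and had to differ, and the count of 8 is a description. The log2 fold change was 10.10 ± 1.42 (SE) for MYH6, 7.78 ± 1.48 for ACTC1, 6.72 ± 0.70 for TTN and 3.33 ± 0.76 for TPM1, all at an edgeR FDR of 0.0304, and 7.11 ± 1.70 for MYH7 at 0.0319. CMm-EV 2 carried 329 of the 375 counts of MYH7 in CMm-EV, so the value of MYH7 rests largely on that library. Against the floor of 3 counts, MYL7 was at least 130-fold, MYL4 at least 91.5-fold and TNNC1 at least 49.4-fold higher. In all, 8 of the 9 had every CMm-EV above every hiPSC-EV, against 2.58% of 7755 rows. Without the hiPSC-EV library that holds their counts, the fitted values against a group at 0 were 11.58 for MYH6 and 9.20 for ACTC1 (hiPSC-EV 3) and 10.16 for MYH7 (hiPSC-EV 2), and that of TTN was 7.35 without hiPSC-EV 2. Without any 1 hiPSC-EV library, 8 were tested and 2 called, MYH6 and TTN, among 3 to 4 of all rows. Without any 1 CMm-EV library, only TTN and TPM1 passed the filter and both were called, among 772 to 972 of all rows. With library size as the only scaling 3 were called (13 of all rows), without a filter 4 (68 of 28627) and with a filter on the mean count 0 (0 of 2142). This comparison uses the same libraries as the steps above and adds no replicate to them.

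**Figure D4:**
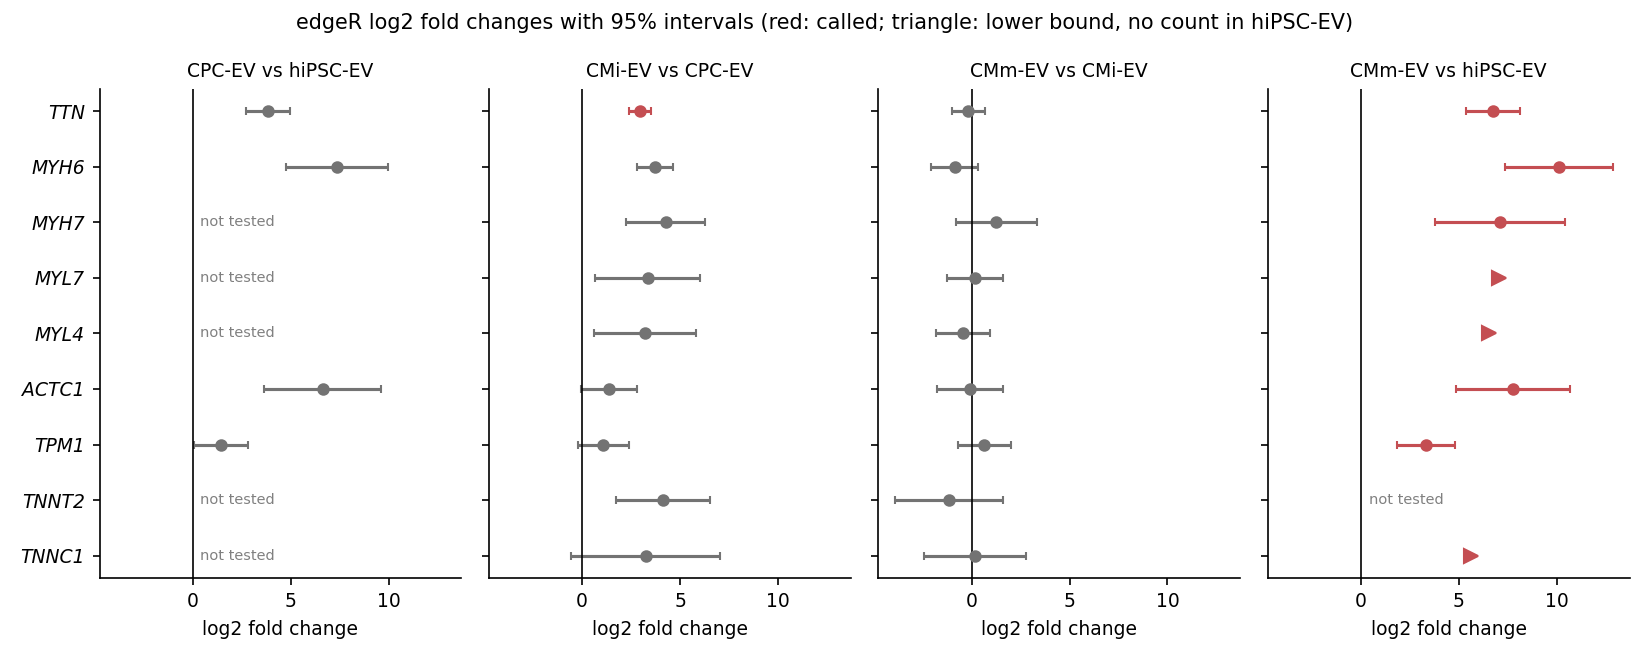
Log2 fold changes of the 9 transcripts (horizontal axis) in 4 comparisons of EV groups, by gene (vertical axis). Points are edgeR estimates with normal 95% intervals from their standard errors, red marks a call, and triangles are lower bounds for genes without a count in hiPSC-EV. Values are positive from CPC-EV to CMi-EV and lie around 0 from CMi-EV to CMm-EV.

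In the F-test of edgeR over the 4 groups, 3 of the 9 were called, TTN (FDR 3.81e-05), MYH6 (0.000192) and MYL7 (0.0416), beside 0.812% of 7755 rows. MYL7 and MYH6, with 0 and 1 counts in hiPSC-EV, passed the filter through the later groups, so this count too is a description. The other 6 had FDR from 0.0526 (MYL4) to 0.191 (TPM1). TTN and MYH6 were called each time 1 library was left out, and MYL7 only once in 12, without CPC-EV 3.

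The direction from CMi-EV to CMm-EV depended on what a library was scaled to. Summed over the 9 genes, CMm-EV 1, 2 and 3 held 20348, 15903 and 7609 CPM of the unscaled gencode total, against 12566 to 14091 in CMi-EV. Scaled instead to the total of all RNA classes, as in the RPM of the authors, they held 1664, 677 and 375 against 1429 to 2054 in CMi-EV. The gencode share of the library total, 10.1% to 16.3% in CMi-EV and 4.26% to 8.18% in CMm-EV, moved with this, and its part in the result was not tested. From hiPSC-EV to CPC-EV and on to CMi-EV, groups did not overlap on any of the 3 scales.

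**Figure D5:**
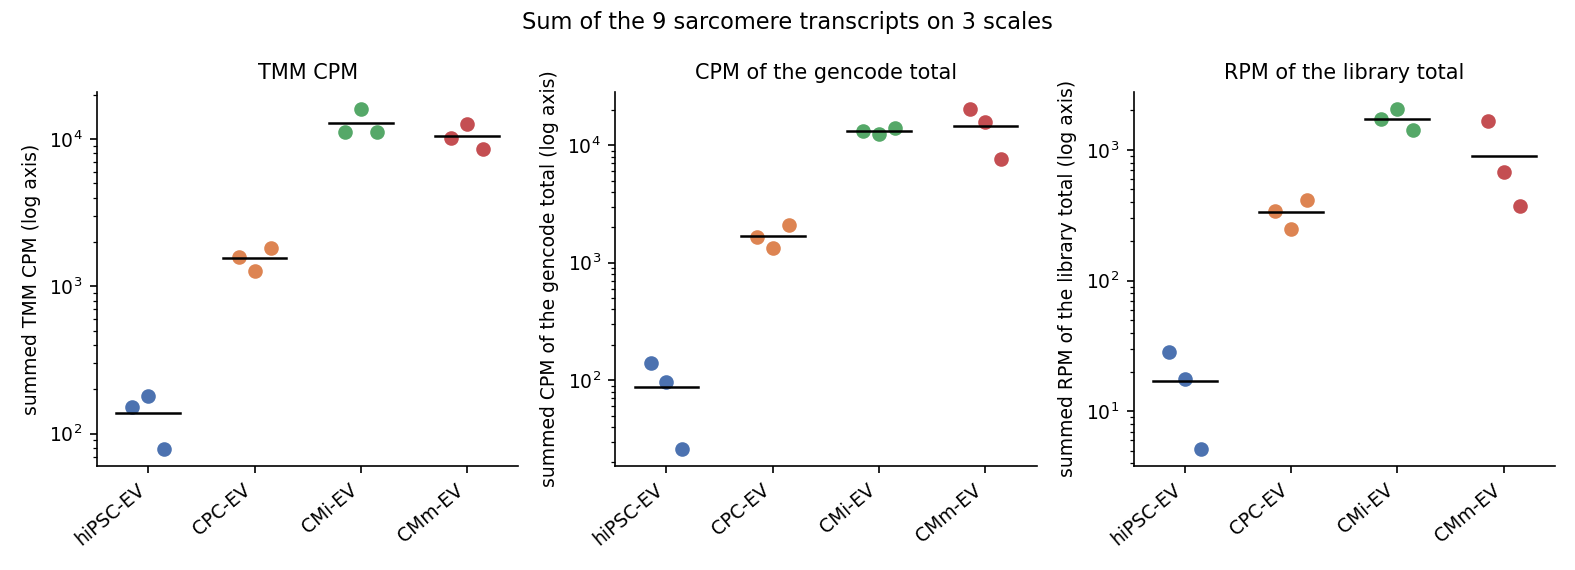
Summed level of the 9 transcripts in each library on 3 scales (vertical log axes), TMM-normalized CPM, CPM of the gencode total and RPM of the library total, by EV group (horizontal axes). Points are libraries and bars means of 3. The ranges of CMi-EV and CMm-EV overlap on each scale, and CMm-EV 2 and 3 lie below CMi-EV on the RPM scale.

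Reads of a gene were split among rows of different biotypes, so a protein_coding row can miss part of them. This row held 100% of the sense counts of MYH7, 99.9% of TTN, 98.9% of TNNC1, 88.3% of MYH6, 72.4% of MYL7, 71.2% of MYL4, 68.4% of TNNT2 and 66.6% of TPM1, but only 38.4% of ACTC1. Most of the rest of ACTC1 stood in its processed_transcript row, with 107, 300.1 and 126 counts in CPC-EV against 46.2, 159 and 52.4 in the protein_coding row. In 20-base words, 22.3% of the ACTC1 coding sequence occurs in other genes, among them ACTA2 and POTEM, and at most 5.59% of that of MYL4, TPM1, TNNC1, MYL7 or TTN does. For TNNT2, 92.7% occurs in 1 unnamed overlapping gene of the annotation used here, which has no row under that identifier in the table. With all sense rows of a gene summed, the calls were 0, 1, 0 and 8 in the 4 comparisons, as with the protein_coding rows.

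Of 46 further sarcomere genes, 38 had a protein_coding row. In CMm-EV against hiPSC-EV, 14 were tested, 7 were called higher and 1 lower, beside 2.61% and 26.2% of all rows. Of the 7, all but FLNC were at 0 in hiPSC-EV and passed the filter only through CMm-EV, so they had to differ. None of the 46 was called in the 3 steps between neighbouring stages. On the thick filament, MYL3, the ventricular essential light chain, was at 7.64, 162 and 153 CPM in CMm-EV, and MYBPC3, which tunes myosin, was at 199, 172 and 134 CPM. On the thin filament, TNNI1, the fetal troponin I, was at 440, 402 and 61.4 CPM in CMi-EV and 84.0, 61.3 and 256 CPM in CMm-EV. ACTN2 and FLNC (Z-disc), XIRP1 (cell junctions) and MYOM1 (M-band) were also higher. TPM3, a tropomyosin made in most cells, was lower, from 65.5 ± 18.8 CPM (SD, n = 3) in hiPSC-EV to 0 in all CMi-EV and CMm-EV. In CMm-EV against hiPSC-EV it passed the filter only through hiPSC-EV, so it too had to differ. The adult isoforms MYL2, of ventricular myosin, and TNNI3, of cardiac troponin I, had no count in CMi-EV or CMm-EV.

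Outside the sarcomere, 2 of 20 cardiomyocyte genes (5 tested), SLC8A1 (the sodium-calcium exchanger) and HSPB7 (a heart chaperone), and 1 of 12 cardiac transcription factors (2 tested), GATA6, were called higher in CMm-EV than in hiPSC-EV. All 3 were at 0 in hiPSC-EV and passed the filter only through CMm-EV, and 2.61% of all rows were called higher. Of 14 genes of non-muscle actomyosin, which gives other cells their shape and motility, all were tested and 4 were called lower, MYH10, ACTN1, CFL1 and TPM3, a share close to the 26.2% of all rows. ACTN1, CFL1 and TPM3 were at 0 in CMm-EV, and MYH10 was at 0, 2.45 and 3.82 CPM there. All 4 thus passed the filter only through hiPSC-EV and had to differ. The 14 genes summed to 1378 to 2425 CPM across hiPSC-EV libraries and 172 to 477 CPM across those of CMm-EV, without overlap. Among 14 pluripotency genes (10 tested), 8 were called lower, POU5F1, LIN28A, L1TD1, DPPA4, TDGF1, TERF1, DNMT3B and SALL4, beside the same 26.2% of all rows. All but L1TD1 were at 0 in CMm-EV, and L1TD1 had 1 count there, so all 8 passed the filter only through hiPSC-EV. Of 11 markers of smooth muscle and fibroblasts, 3 to 5 were tested in a pair of groups and none was called. For endothelium and for endoderm and liver at most 1 gene could be tested in a pair, and for blood 0, so these lists were hardly tested. The smooth muscle and fibroblast markers summed to 91.7 to 354 CPM in the hiPSC-EV libraries, 871 to 984 CPM in those of CPC-EV, 242 to 680 CPM in those of CMi-EV and 141 to 367 CPM in those of CMm-EV. The CPC-EV sum, above that of all hiPSC-EV, was mostly FN1, the matrix protein fibronectin (mean 565 CPM, 82.4 CPM in hiPSC-EV), and VIM, an intermediate filament of mesenchymal cells (244 and 6.42 CPM). The other genes of the list were mixed. COL1A1 had a mean of 66.7 CPM in CPC-EV and 25.1 CPM in hiPSC-EV, TAGLN a mean of 5.14 CPM in CPC-EV and 40.4 CPM in hiPSC-EV, COL1A2 of 8.31 and 21.6 CPM, and POSTN and LUM were at 0 in both. The part of such cells in the levels of TPM1 and ACTC1 was not tested.

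The members varied together across the 12 libraries. On log2(CPM + 1), Pearson's r of each gene with the mean of the 8 others ran from 0.746 for TNNT2 and 0.802 for TNNC1 to 0.960 for MYH6, and MYL7 and MYL4 had an r of 0.995 with each other. These values describe 12 points in 4 groups, which share depth and scaling. Of 7746 further rows, the closest to the mean profile of the 9 were other rows of the same genes, the nonsense_mediated_decay row of MYL4 (r = 0.960), the processed_transcript row of MYL7 (0.958) and the retained_intron rows of MYH6 (0.957) and TPM1 (0.946). Among other genes came RN7SL242P (0.927), TNNI1 (0.921), LINC01787 (0.915), RN7SL43P (0.912), RN7SL300P (0.911), DIRC2 (0.885), a pseudogene named by its clone (0.884) and RN7SL546P (0.882). The RN7SL rows are near-identical copies of 1 family, so their separate values are uncertain.

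Since the members varied together, the 250 bases before their annotated starts were searched on both strands for 6 short motifs. Not all of these are particular to muscle promoters. The set of RefSeq promoters searched here (GRCh38.p14) held a start for 6 of the 9 genes (ACTC1, MYH6, MYL7, TNNT2, TPM1 and TTN). It had 3 starts for ACTC1, which makes 8 windows. MYH7, MYL4 and TNNC1 were not in that set, so their promoters were not searched. A CArG box, the site bound by serum response factor, was in 2 of the 8 windows and in 1.16% of 34943 promoters, and a MEF2 box was in 1 and in 2.81%. The letters CATTCC were in 4 of the 8 windows (11.9% of promoters), GATA in 4 (45.7%, a like share), TATAAA in 2 (10.8%) and CAGCTG in 1 (14%). The 3 stretches of 100 bases below hold the CArG boxes of MYL7 (61 bases before the start, chr7:44141339-44141438) and ACTC1 (109 bases before, chr15:34795604-34795703) and the MEF2 box of TTN (167 bases before, chr2:178807536-178807635), on the minus strand, 5′ to 3′, with the box in capitals. Of the RefSeq starts, those of MYH6 and MYL7 coincide with the start of the GENCODE gene, and the other 6 (TTN, TPM1, TNNT2 and the 3 of ACTC1) lie inside it.
MYL7: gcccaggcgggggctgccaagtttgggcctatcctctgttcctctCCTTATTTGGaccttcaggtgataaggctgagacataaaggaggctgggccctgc
ACTC1: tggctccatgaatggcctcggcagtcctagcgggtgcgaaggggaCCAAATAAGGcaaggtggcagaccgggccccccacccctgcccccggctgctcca
TTN: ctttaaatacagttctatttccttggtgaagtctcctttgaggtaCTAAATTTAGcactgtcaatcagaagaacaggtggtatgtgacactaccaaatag
Each match is a description of the letters in these windows and was not tied to the levels in EV.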

How the data were processed

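Per the labels and the methods of the study, EV were separated by density gradient, RNA was extracted and small RNA libraries were sequenced in 12 samples. Read processing by the authors used exceRpt 4.6.2 with hg38, and the submitters' notes name edgeR 3.24.0. The deposited gencode and miRNA tables hold expected counts per row, of which 69.9% of the non-zero gencode values were not whole, and these were rounded. The RPM deposited by the authors served for library totals. Symbols in the table end at a hyphen, so antisense rows were left out of sums over a symbol.

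The 9 genes and all lists were chosen with earlier results of these data known. Rows were kept if they had at least 5 CPM, before TMM scaling, in 3 libraries of a fit. After TMM scaling they were tested with the quasi-likelihood method of edgeR 4.0.16 (R 4.3.3). P-values were two-sided and adjusted by Benjamini-Hochberg across every row tested, and calls needed FDR below 0.05 with a log2 fold change of 1 or more in either direction. Intervals of fold changes are normal intervals from the standard error and are narrower than the test. Of each list, genes called in a pairwise comparison were named, at most 8 by the p of the F-test, and 8 further genes by likeness. Sequences and lengths came from hg38 with GENCODE v44 and from RefSeq. The fits were run on simulated counts with the same dispersion in all rows and changes only in rows with higher counts. This run does not cover members near 0 counts. Alternatives were other scaling, filters, tests (DESeq2 1.42.0), a replicate block, summed rows and each library left out. Libraries of a group differed by more than counting error (chi-square per degree of freedom from 14.4 to 44.7). Python 3.11.15, scipy 1.17.1 and matplotlib 3.10.9 were used for permutation tests and figures.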

Additional observations from a re-analysis of the deposited data

Results flagged for a closer look

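An antisense row under the symbol TTN, which no comparison above used, had 36 counts in CPC-EV 1, above the highest value in hiPSC-EV, the starting cells, which was 8 in hiPSC-EV 3. The other libraries had at most 2 counts of it, and TTN itself had 924 counts in CPC-EV 1.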

How the results depend on the processing

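Of the 9 transcripts, those called from hiPSC-EV to CPC-EV numbered 0, and 3 at an unadjusted p of 0.05 (509 of 5308 rows in all), with DESeq2 (354) or with 5 CPM in each library of a group (337 of 3056), 2 without a filter (62 of 31338) or with dispersions from all 12 libraries (2), and 1 with library size only (12) or library totals of all RNA classes (8). From CPC-EV to CMi-EV, 1 was called, and 7 with DESeq2 (848 of 3772 rows in all), 4 at an unadjusted p (790) or with 5 CPM in each library of a group (724 of 2372), 3 with the replicate block (63), 2 with library size only (7) or without a filter (36 of 24118), and 0 with library totals (2) or without any 1 library (0 to 2). CMm-EV against hiPSC-EV had 8, and 7 with library totals (TPM1 lost, 947 of 3177 rows called in all) or dispersions from all 12 libraries (TNNC1 lost, 75), 6 with the replicate block (TPM1 and TNNC1 lost, 84), 4 without a filter, 3 with library size only, 2 without any 1 library (of 8 tested without a hiPSC-EV library, and of 2 tested without a CMm-EV library) and 0 with a mean of 10 counts. In the F-test, 3 were called, and 9 at an unadjusted p (2000 of 7755 rows in all) or with 5 CPM in each library of a group (1111 of 3381), 8 with DESeq2 (454), 6 with library size only (75), filterByExpr (87 of 3421), a mean of 10 counts (67 of 3010) or the replicate block (181), 5 with library totals (181) or the robust fit (89), 4 without a filter (172 of 35180) or with summed rows (62 of 6331), and 2 to 4 without 1 library. From CMi-EV to CMm-EV the number was 0 in each of these settings. The causes were not tested.

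Log2 fold changes of the members kept their direction in every alternative of 3 comparisons. Several members passed the filter there only through the later group, which largely fixed their direction, so this is a description. From CMi-EV to CMm-EV, where none was called, 18 of 171 changed direction. With library size only, TTN had 0.25 and ACTC1 0.41, and the log2 ratio of the summed level was 0.023. With library totals, MYL7 had -0.62, TNNC1 -0.69 and TPM1 -0.41. ACTC1 had 0.068 with a mean of 10 counts and 0.0082 with the replicate block, MYL7 had -0.086 and TNNC1 -0.065 with dispersions from all 12 libraries, and MYL7 had -0.026 with summed rows. Without 1 library, MYH7 ranged from -0.50 to 1.80, TTN from -0.29 to 0.0096, ACTC1 from -0.48 to 0.27, MYL7 from -0.020 to 0.50 and TNNC1 from -0.41 to 0.94.

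The replicate numbers did not pair the libraries (correlations of same-numbered deviations from -0.05 to 0.03), although each of the 3 correlated best with its own number from CPC-EV to CMi-EV. The difference of the MYH6 to MYH7 log2 ratio was -1.43 in the paired analysis too (exact permutation p = 0.5, smallest 0.25) and ranged from -2.52 to -0.67 without 1 library. In hiPSC-EV, 3 counts of MYH7 and 0 of TNNC1 stood behind the values, and in CPC-EV 21 and 42, at gencode totals of at least 307432 and 733331 per library, and counts this low leave wide intervals on their ratios.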
